A study of Homo sapiens with 24 samples.

Results

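The 35 genes described here encode aminoacyl-tRNA synthetases, 20 that charge tRNA in the cytosol and 15 that do so in mitochondria. They were taken by symbol from a fixed list among the 25559 genes of the count files, and the mitochondrial enzymes are those whose symbols end in 2. Their RNA was measured by RNA-seq in 24 libraries from 3 human lines of T-cell origin, HH (cutaneous T-cell lymphoma), PF382 (T-cell acute lymphoblastic leukemia) and TLOm1 (adult T-cell leukemia). Cells were collected after 96 h, during which a hypomethylating nucleoside analog, AZA or decitabine, was added every 24 h, or were left untreated. The AZA doses were 50, 125 and 250 nM for HH, and 125, 250 and 500 nM for the other lines. The decitabine doses were 5, 12.5 and 25 nM for each line. By the prefix of the titles the libraries make up an AZA set and a decitabine set, with 1 untreated library of each line in either. Each line and dose has 1 library and each line is a single established culture. A p value therefore measures the spread among these libraries alone, which may be technical, and the 9 treated libraries of a drug are 3 doses in 3 lines rather than 9 independent cultures.

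An aminoacyl-tRNA synthetase joins an amino acid to its tRNA, the step that supplies the ribosome. Most amino acids have a cytosolic enzyme and a separate mitochondrial enzyme that is also encoded in the nucleus, whereas GARS and KARS each supply both compartments. When amino acids are short or proteins misfold, the integrated stress response raises translation of ATF4, a transcription factor that in human and mouse cells induces amino acid synthesis genes, transporters and many of the cytosolic synthetases. For this reason the 20 cytosolic genes were also read as 13 ATF4-linked genes (AARS, CARS, EPRS, GARS, IARS, LARS, MARS, NARS, SARS, TARS, VARS, WARS and YARS) and 7 others (DARS, FARSA, FARSB, HARS, KARS, QARS and RARS). The split was drawn from general knowledge of ATF4 targets with earlier results of these data known.

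Promoter sequences were searched for the site of ATF4. The composite element TGATGCAA, which ATF4 binds together with a C/EBP partner, was searched on both strands of RefSeq promoter windows (GRCh38.p14) that run from 250 bases before to 50 bases after the gene start. Of the 35 members, 29 had a window, and 6 of the 16 cytosolic genes with a window (37.5%) held the element, against 0 of 13 mitochondrial genes and 295 of 27305 genes overall (1.08%). All 6 belong to the ATF4-linked group, of which 10 had a window. With the looser form TGATGNAA the counts were 7 of 16 cytosolic and 1 of 13 mitochondrial genes, against 4.46% of all genes. A match is a description of these letters and not evidence of binding. The stretches that hold the element are given 5′ to 3′ along the strand of the gene, with the element in capitals, because 5 of these genes (all but TARS) recur in the drug results. GARS, SARS and WARS, whose windows lack the element, recur there as well, as does YARS, which had no window. CARS and NARS hold the element and were not called under decitabine. A link between the element and the drug results was not tested. On the printed strand 5 of the 6 read TTGCATCA, the reverse complement, and NARS reads TGATGCAA.
AARS (chr16:70289678-70289717, minus strand): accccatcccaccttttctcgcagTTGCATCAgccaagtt
CARS (chr11:3057410-3057449, minus strand): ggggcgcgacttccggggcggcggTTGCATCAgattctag
IARS (chr9:92293695-92293734, minus strand): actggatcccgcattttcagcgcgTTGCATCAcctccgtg
MARS (chr12:57488040-57488079, plus strand): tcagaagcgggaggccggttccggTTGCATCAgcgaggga
NARS (chr18:57621807-57621846, minus strand): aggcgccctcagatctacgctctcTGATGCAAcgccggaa
TARS (chr5:33440943-33440982, plus strand): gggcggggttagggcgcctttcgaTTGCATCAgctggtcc

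HARS and HARS2, the cytosolic and mitochondrial histidine enzymes, are neighbors on chromosome 5 that are read away from each other. Their annotated starts lie 84 bases apart, and the interval, given on the plus strand, holds 2 matches to CCGGAAG or its reverse complement CTTCCGG, shown in capitals because both genes share them. That heptamer occurred in 9 of 16 cytosolic and 6 of 13 mitochondrial windows and in 12.2% of all windows.
HARS to HARS2 (chr5:140691371-140691454, plus strand): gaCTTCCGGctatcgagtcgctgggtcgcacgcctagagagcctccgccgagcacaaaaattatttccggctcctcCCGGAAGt

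Total counts ran between 16175077 and 32496676 in the AZA set and between 13892514 and 29793985 in the decitabine set, and the lowest count of any member in any library was 69, so no member sat near the detection limit. Levels below are normalized read counts, that is counts-per-million (CPM) of the library total scaled by the TMM method over all 24 libraries. T-cell markers summed to 748 to 2081 CPM and CD3E was detected in all 24 libraries, while CD3D, CD3G and LCK were at 0 in 3, 4 and 6 libraries. The TLOm1 library at 5 nM decitabine stood apart. Its 5 fibroblast markers summed to 27.5 CPM, against 0.573 CPM in untreated TLOm1 of the same set, with COL1A2 at 9.48 CPM. In the PF382 libraries these markers summed to between 4.83 and 7.81 CPM. DCN was at 4.84 CPM in untreated PF382 of the AZA set, against 3.58 CPM in the TLOm1 library at 5 nM decitabine. Epithelial markers summed to 38.7 CPM in PF382 at 500 nM AZA, against 4.76 CPM in untreated PF382, and to 39.3 CPM at 25 nM decitabine, against 3.21 CPM untreated. In TLOm1 they summed to 51.5, 146, 164 and 150.3 CPM at 0, 125, 250 and 500 nM AZA and to 84.1, 88.6, 154 and 138 CPM at 0, 5, 12.5 and 25 nM decitabine, with KRT8 at 10.9 CPM untreated and 93.2, 111 and 103 CPM under AZA. KRT19 was at 0 in 18 libraries and EPCAM in 14. The part of the epithelial markers in the results was not tested. For decitabine, counts of calls and class medians are also given without the TLOm1 library at 5 nM. Fewer cells of a kind and less RNA per cell cannot be told apart in such bulk libraries.

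In untreated cells the cytosolic enzymes were the more abundant class. Per kilobase of exon, the 13 highest members were all cytosolic, led by KARS (lysine) at 116 CPM per kb, GARS (glycine) at 116, MARS (methionine) at 115 and AARS (alanine) at 115, each a mean over the 6 untreated libraries. IARS2 (isoleucine) ranked 14 at 49.4 CPM per kb and CARS2 (cysteine) 18 at 41.4, the highest of the mitochondrial enzymes. At the low end stood WARS2 (tryptophan) with 6.66 and PARS2 (proline) with 3.31 CPM per kb. Exon lengths came from another annotation than the counts, so these levels are approximate, and close neighbors in the order did not differ beyond their spread, since KARS ran between 91.0 and 137 and GARS between 97.4 and 139 CPM per kb over the untreated libraries. The HARS gene of the shared interval averaged 26.1 CPM per kb and HARS2 13.9.

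**Figure D1:**
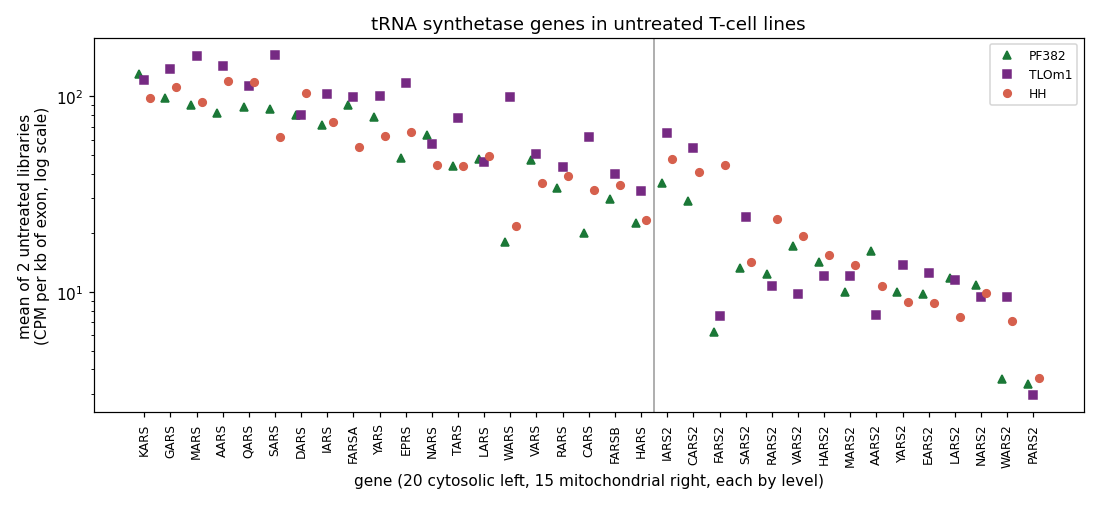
Mean level of each gene in the untreated libraries of PF382, TLOm1 and HH (2 libraries per point), in CPM per kb of exon on a log axis, with the 20 cytosolic genes left and the 15 mitochondrial genes right of the line. TLOm1 lies on top for most cytosolic genes, and FARS2 in HH stands well above the other lines.

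The lines differed in these genes before any drug was given. Across the 3 lines 29 of 35 members differed (18 cytosolic, 11 mitochondrial) in edgeR's quasi-likelihood test with Benjamini-Hochberg adjustment at 0.05, against 83% of all genes tested, so the share of members is the background share. TLOm1 had more cytosolic synthetase RNA than HH, with 14 cytosolic members higher and 1 lower (median log2 difference 0.48, against -0.02 over all genes), where 28% of all genes were higher and 30% lower. The mitochondrial members went either way, with 7 higher and 5 lower (median -0.07). PF382 minus HH gave 6 cytosolic genes higher and 5 lower, and 2 mitochondrial genes higher and 5 lower, where 66.1% of all genes differed. Set against TLOm1, PF382 had 14 cytosolic genes lower and 0 higher, and 2 mitochondrial genes higher and 5 lower, where 66.3% of all genes differed. The 27 calls between TLOm1 and HH dropped to 14 without the untreated HH library of the decitabine set and to 17 without the untreated TLOm1 library of the AZA set, and the 18 between PF382 and HH dropped to 11 without that HH library. Calls over all genes were not counted in these fits.

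WARS, the cytosolic tryptophan enzyme, which is known as an interferon-inducible gene, gave the largest cytosolic contrast. In the untreated AZA-set and decitabine-set libraries it had 73.0 and 79.8 CPM in PF382, 395 and 448 CPM in TLOm1, and 87.3 and 95.9 CPM in HH. TLOm1 stood apart from both other lines without overlap (TLOm1 minus HH 2.21 ± 0.11, log2 with SE, adjusted p = 1.58e-08). SARS (serine) had 179 and 156 CPM in PF382, 341 and 292 CPM in TLOm1, and 124 and 117 CPM in HH, and CARS (cysteine) had 68.2 and 56.4, 171 and 213, and 101 and 107 CPM in the same order. TLOm1 minus HH was 1.39 ± 0.11 for SARS and 0.89 ± 0.13 for CARS. Among mitochondrial enzymes FARS2 (phenylalanine) was the reverse case, with 13.4 and 11.2 CPM in PF382, 16.8 and 12.8 CPM in TLOm1, and 90.3 and 86.0 CPM in HH. It was lower than in HH in both other lines (PF382 -2.79 ± 0.15, TLOm1 -2.58 ± 0.14), while FARSA, a subunit of the cytosolic phenylalanine enzyme, was higher in both (0.78 ± 0.11 and 0.86 ± 0.11). RARS2 (arginine) and VARS2 (valine) were also lower in TLOm1 than in HH, at -1.13 ± 0.14 and -0.97 ± 0.12.

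Untreated libraries of one line were not alike in the 2 sets. Their chi-square statistic divided by its degrees of freedom was 36.2 for PF382, 25.1 for TLOm1 and 35.8 for HH, far beyond sampling noise. In the decitabine set 4 members were lower than in the AZA set (FARSA -0.41 ± 0.09, AARS2 -0.45 ± 0.10, VARS2 -0.33 ± 0.10 and AARS -0.34 ± 0.10) and 0 higher, where 19.4% of all genes differed. Each drug was therefore read against its own untreated libraries.

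Pooled over doses and lines, neither drug moved a member past the threshold. For AZA 0 of 35 members were called by edgeR (1.17% of all genes were), DESeq2 called 1 (LARS, higher) and limma-voom 0. At an unadjusted p under 0.05 were 6 members and 3377 of 16107 genes, a larger share than among the members. For decitabine 0 of 35 were called by edgeR (0% of all genes), DESeq2 called 4 (MARS, GARS, IARS and AARS, all lower) and limma-voom 0. At an unadjusted p under 0.05 were 8 members and 2492 of 15892 genes. Shares over all genes are given for edgeR alone. All 20 cytosolic members were nonetheless fitted below 0 under decitabine, where 55.6% of all genes were fitted above 0, with a median of -0.11, against -0.06 for the mitochondrial members and 0.02 over all genes. The AZA medians were 0.00 for the cytosolic, -0.01 for the mitochondrial members and 0.01 for all genes. With both untreated libraries of a line as controls, 5 members were called for AZA (2 higher, 3 lower) and 9 for decitabine (all lower). That fit had no term for the set, so set and drug cannot be told apart in it. Its share of calls over all genes was not computed.

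The members with the smallest p in the pooled AZA test were LARS, FARS2, DARS and NARS. LARS, the leucine enzyme, had 242 CPM in untreated HH and 257, 270.4 and 261 CPM with rising AZA dose, 231 CPM in untreated PF382 and 249, 239.9 and 239.8 CPM with rising dose, and 229 CPM in untreated TLOm1 and 278, 271 and 288 CPM with rising dose. It lay above the own untreated library in 9 of 9 treated libraries, with a pooled log2 change of 0.16 ± 0.05 (edgeR adjusted p = 0.138). FARS2 lay below it in 9 of 9, with 90.3, 77.5, 82.4 and 87.0 CPM in HH at 0, 50, 125 and 250 nM, 13.4, 12.6, 10.01 and 9.50 CPM in PF382 at 0, 125, 250 and 500 nM, and 16.8, 14.1, 12.3 and 14.1 CPM in TLOm1 at the same doses. Its pooled change was -0.25 ± 0.09 (adjusted p = 0.148).

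At the highest AZA dose, taken over the 3 lines, 5 of 20 cytosolic enzymes passed the threshold, and they went either way. CARS and NARS (asparagine) rose, while DARS (aspartate), QARS (glutamine) and RARS (arginine) fell, as did the mitochondrial MARS2 (methionine) and YARS2 (tyrosine). These were 7 of 35 members, 2 higher and 5 lower, where 14.9% of all genes were called (8.46% higher, 6.43% lower), so the share of members is close to the background share. At the lowest and middle AZA doses edgeR called 0 members (0.031% and 2.07% of all genes), and DESeq2 called 0 and 1. At an unadjusted p under 0.05 were 1 and 8 members, and 1418 and 2877 of 16107 genes. Of the ATF4-linked group 9 of 13 were fitted above 0 at the highest dose (median 0.14), and of the other cytosolic genes 0 of 7 (median -0.20), with 0.02 as the median of all genes and 52.3% of them above 0. AARS, which is ATF4-linked, went against its group at -0.21 (not called), and lay below untreated in 8 of 9 AZA libraries. The 3 cytosolic genes called lower are all among the 7 others, in lists drawn with earlier results known. DARS, QARS and RARS are among the 8 listed enzymes of the multisynthetase complex, a cytosolic assembly that also holds the scaffold proteins AIMP1, AIMP2 and EEF1E1. The other 5 enzymes were not called, with LARS at 0.16 ± 0.06, MARS at 0.17 ± 0.07 (both at an unadjusted p under 0.05), EPRS at 0.05 ± 0.08, IARS at -0.05 ± 0.07 and KARS at -0.11 ± 0.07. Of the 3 scaffold genes 0 were called by edgeR, with 0 at an unadjusted p under 0.05. The 7 calls became 3 without the untreated TLOm1 library and 4 without the untreated HH library or without TLOm1 at 250 or 500 nM. CARS kept its call without any one library (12 of 12 fits), QARS in 11, NARS and DARS in 10, RARS in 9, MARS2 in 2 and YARS2 in 1. Calls over all genes were not counted in these fits.

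**Figure D2:**
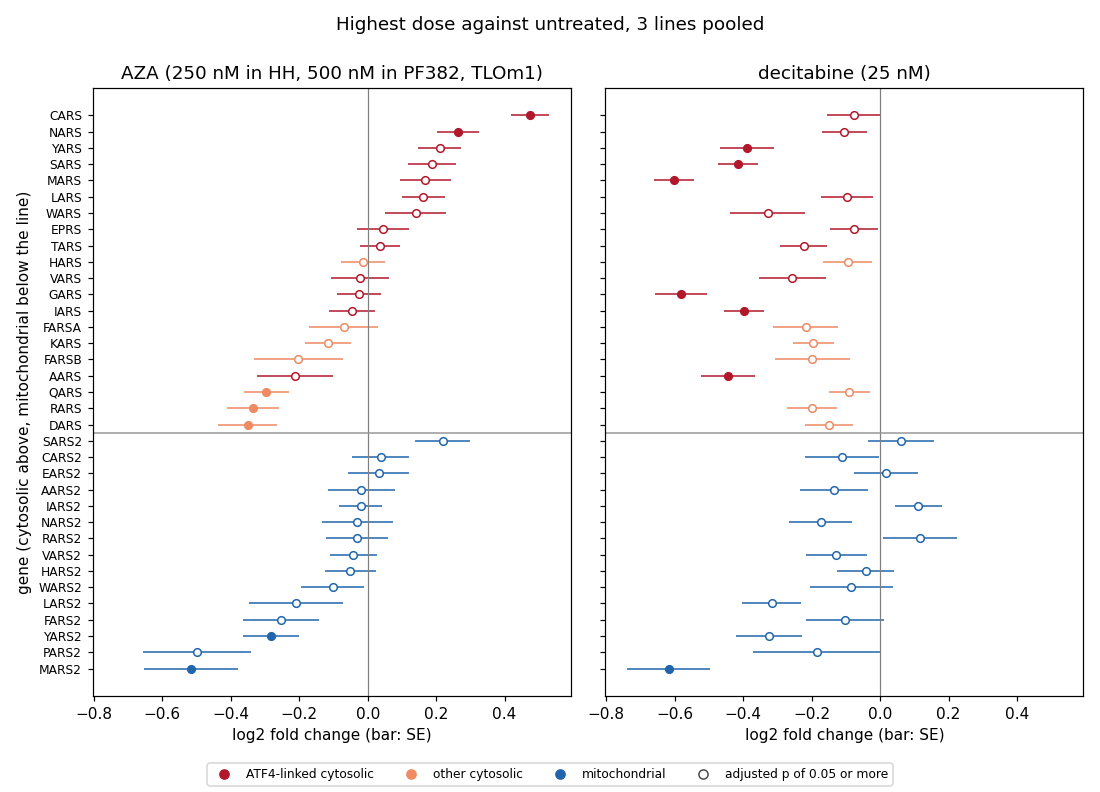
Log2 fold change (point) and SE (bar) of each gene at the highest dose against untreated over 3 lines, AZA left and decitabine right, with cytosolic genes above and mitochondrial genes below the line and filled points past an adjusted p of 0.05. Under AZA 9 of the 13 ATF4-linked genes lie right of 0 (CARS 0.47), while the ATF4-linked AARS (-0.21) lies left of it, as do RARS, QARS and DARS. Under decitabine all 20 cytosolic genes lie left of 0 (MARS -0.60).

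The library values show how regular these changes were. NARS had 129, 140.0, 142 and 147 CPM in HH at 0, 50, 125 and 250 nM AZA, 198, 214, 217 and 229.5 CPM in PF382 at 0, 125, 250 and 500 nM, and 170.5, 180.5, 190.3 and 224 CPM in TLOm1 at the same doses. It rose with each dose in all 3 lines and was above untreated in 9 of 9 libraries (highest dose 0.26 ± 0.06, edgeR adjusted p = 0.0208). DARS went the other way, with 229.8, 218, 216 and 192 CPM in HH, 201, 154, 153 and 130.0 CPM in PF382, and 172, 174, 161 and 155 CPM in TLOm1 at those doses (-0.35 ± 0.09, adjusted p = 0.0265). The largest DARS drop was in PF382, and DARS was the 1 member with an unadjusted p under 0.05 in the test of a difference between lines (edgeR adjusted p = 0.425). QARS had 335, 319.8, 318 and 289 CPM in HH, 289.6, 264, 262 and 207 CPM in PF382, and 321, 335, 308 and 281 CPM in TLOm1 (-0.30 ± 0.07, adjusted p = 0.0181). YARS2 had 20.3, 19.0, 17.8 and 17.6 CPM in HH, 21.3, 20.8, 18.6 and 17.7 CPM in PF382, and 29.6, 28.8, 26.0 and 22.8 CPM in TLOm1, a decline with each dose in every line (-0.28 ± 0.08, adjusted p = 0.0461).

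The slope on log2 dose among the 9 treated libraries does not use the untreated libraries. With rising AZA dose 5 cytosolic genes rose (CARS, SARS, MARS, WARS and YARS, all ATF4-linked) and RARS, MARS2 and PARS2 fell, 8 of 35 members where 17.1% of all genes had a slope past the threshold (8.99% higher, 8.13% lower). Of the ATF4-linked genes 8 of 13 had a slope above 0 (median 0.04 per doubling), of the other cytosolic genes 0 of 7 (median -0.08), and of the mitochondrial genes 1 of 15 (median -0.02), with 50.8% of all genes above 0 and a median of 0.00. Without TLOm1 at 125 nM the 8 calls became 5. CARS, SARS, RARS and MARS2 kept theirs in 9 of 9 fits that each left out 1 library, MARS in 8, YARS in 7, WARS in 4 and PARS2 in 2. Calls over all genes were not counted in these fits.

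CARS, which charges cysteine, had the steepest rise. Its levels were 101, 103, 121 and 149.9 CPM in HH at 0, 50, 125 and 250 nM AZA, 68.2, 66.2, 78.2 and 91.4 CPM in PF382 at 0, 125, 250 and 500 nM, and 171, 176, 195 and 230.5 CPM in TLOm1 at the same doses. The treated libraries rose with each dose in all 3 lines, by 0.23 ± 0.02 per doubling (edgeR adjusted p = 0.00142). CARS2, its mitochondrial counterpart, had 84.1, 83.2, 79.7 and 84.5 CPM in HH, 59.7, 64.9, 56.9 and 54.8 CPM in PF382, and 109, 128, 130.4 and 129 CPM in TLOm1, with a slope of -0.02 ± 0.03.

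MARS, the cytosolic methionine enzyme, had 289, 255, 253 and 292 CPM in HH, 287, 304, 325 and 375 CPM in PF382, and 459, 410.1, 429 and 498 CPM in TLOm1. In HH and TLOm1 the lowest dose lay below untreated and the highest just above it, so the slope (0.13 ± 0.03, adjusted p = 0.0160) was past the threshold while the highest dose against untreated was not (0.17 ± 0.07). The mitochondrial MARS2 had 40.4, 37.0, 28.7 and 27.6 CPM in HH, 22.9, 26.4, 23.1 and 22.0 CPM in PF382, and 38.4, 30.3, 26.6 and 20.4 CPM in TLOm1 at these doses. It declined between each dose and the next in all 3 lines (slope -0.19 ± 0.04, adjusted p = 0.0116), so the 2 methionine enzymes moved in opposite directions.

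SARS dipped at the lower doses much as MARS did, with 124, 115, 114 and 137 CPM in HH, 179, 172, 191 and 231 CPM in PF382, and 341, 289, 296 and 355 CPM in TLOm1 (slope 0.16 ± 0.03, adjusted p = 0.0130). SARS2, the mitochondrial serine enzyme, had 34.9, 35.2, 40.8 and 45.7 CPM in HH, 29.1, 31.6, 33.8 and 33.7 CPM in PF382, and 55.9, 57.2, 62.5 and 58.2 CPM in TLOm1. It lay above untreated in 9 of 9 libraries, but neither its slope (0.09 ± 0.04) nor its highest dose (0.22 ± 0.08) passed the threshold. YARS, the tyrosine enzyme, had 212, 204, 219.9 and 258 CPM in HH, 272, 277, 281 and 289 CPM in PF382, and 342, 329, 363 and 410.5 CPM in TLOm1 (slope 0.12 ± 0.03, adjusted p = 0.0209), and among treated libraries it rose with each dose in all 3 lines. WARS had 87.3, 77.2, 85.3 and 109.8 CPM in HH, 73.0, 71.8, 78.6 and 82.6 CPM in PF382, and 395, 356, 336 and 372 CPM in TLOm1 (slope 0.13 ± 0.04, adjusted p = 0.0325). In TLOm1 WARS stayed under the untreated level at every dose. WARS2 lay below untreated in 9 of 9 libraries, at 18.5, 18.5, 16.9 and 17.9 CPM in HH, 9.10, 8.43, 8.55 and 8.28 CPM in PF382, and 23.4, 21.5, 21.0 and 21.6 CPM in TLOm1, with a slope of 0.00 ± 0.04.

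Among the genes that fell, RARS, the cytosolic arginine enzyme, had 83.6, 88.9, 77.8 and 60.7 CPM in HH, 65.7, 74.1, 65.9 and 57.9 CPM in PF382, and 92.7, 87.2, 78.2 and 72.3 CPM in TLOm1. It declined between each dose and the next in all 3 lines (slope -0.18 ± 0.03, adjusted p = 0.00648), from a lowest dose that was above untreated in HH and PF382. RARS2 had 41.4, 39.8, 37.5 and 36.1 CPM in HH, 22.4, 22.4, 24.2 and 21.9 CPM in PF382, and 18.7, 21.2, 19.8 and 20.9 CPM in TLOm1, with a slope of -0.02 ± 0.04. PARS2, which charges proline in mitochondria, had 8.73, 9.31, 7.37 and 6.75 CPM in HH, 8.37, 6.99, 6.51 and 6.13 CPM in PF382, and 6.88, 7.43, 6.37 and 4.23 CPM in TLOm1 (slope -0.21 ± 0.06, adjusted p = 0.0457). EPRS, the cytosolic enzyme for glutamate and proline, showed no such decline (slope -0.03 ± 0.03), at 344, 362, 358 and 335 CPM in HH, 234, 243, 238 and 213 CPM in PF382, and 593, 727, 699.6 and 733 CPM in TLOm1.

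**Figure D3:**
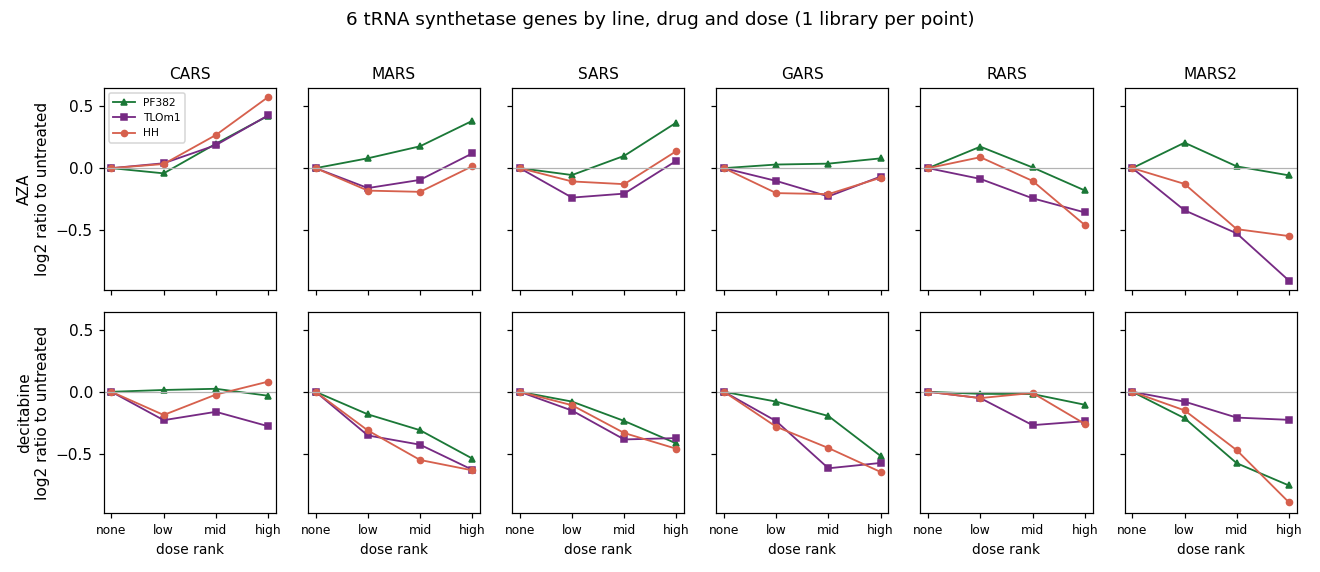
Log2 ratio of 6 genes to the untreated library of the same line and set against dose rank (none, low, mid, high), AZA above and decitabine below, 1 library per point and 1 curve per line. CARS climbs with AZA dose in all 3 lines while RARS and MARS2 decline, and MARS, SARS and GARS lie below untreated at every decitabine dose.

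Under decitabine every member past the threshold was lower. At 25 nM MARS, GARS, AARS, SARS, IARS, YARS and MARS2 fell and 0 members rose, 7 of 35 where 5.88% of all genes were called (3.82% higher, 2.06% lower). The 6 cytosolic genes among them are all ATF4-linked. The medians were -0.33 for the 13 ATF4-linked, -0.20 for the 7 other cytosolic and -0.11 for the mitochondrial genes, against 0.03 for all genes, and all 20 cytosolic genes were fitted below 0, where 55.4% of all genes lay above it. At 12.5 nM 4 members were lower (MARS, GARS, SARS and IARS), where 1.03% of all genes were called. At 5 nM edgeR called 0 (0% of all genes) and DESeq2 1, with 4 members and 644 of 15892 genes at an unadjusted p under 0.05. In single libraries, 12 of 20 cytosolic genes at 25 nM lay below both untreated libraries of the line in all 3 lines, against 9.43% of all genes, and 8 of 20 (AARS, GARS, IARS, MARS, RARS, SARS, WARS and YARS) lay below untreated in 9 of 9 libraries, against 4.54%. Of the mitochondrial genes this held for 5 and 1 of 15.

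The 7 calls at 25 nM stayed at 7 without the TLOm1 library at 5 nM, where 585 of 15787 genes were called. A 5 nM library enters the 25 nM comparison mainly through the spread, so that fit is a weak check of these calls. The 7 calls became 4 without the HH library at 25 nM. MARS, GARS, SARS and IARS were called in 12 of 12 fits that left out 1 library, AARS in 11, MARS2 in 10 and YARS in 8. The 4 calls at 12.5 nM became 1 without TLOm1 at 5 nM, where calls over all genes went from 164 to 107. They also became 1 without untreated HH, untreated TLOm1, HH at 5 or 12.5 nM, PF382 at 5 nM or TLOm1 at 12.5 nM. They became 2 without untreated PF382 or PF382 at 12.5 nM. Apart from the fit without TLOm1 at 5 nM, calls over all genes were not counted here.

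The slope on decitabine dose named nearly the same genes. GARS, MARS, SARS, IARS, AARS and MARS2 fell with dose and 0 members rose, 6 of 35 where 1.86% of all genes were called (1.16% higher, 0.693% lower). With the TLOm1 library at 5 nM left out 7 members were called, where 370 of 11270 genes were. The count was 0 without HH at 5 nM (13 at an unadjusted p under 0.05 by edgeR), 1 without HH at 25 nM, 2 without HH at 12.5 nM or any PF382 library, and 3 without TLOm1 at 12.5 nM. GARS kept its call in 8 of 9 such fits, MARS in 7, SARS in 3, IARS and MARS2 in 2 and AARS in 1. Apart from the fit without TLOm1 at 5 nM, calls over all genes were not counted, so a general change in calls cannot be told apart.

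The class values moved little without the TLOm1 library at 5 nM. All 20 cytosolic members were again fitted below 0 in the pooled effect and at 25 nM, and the pooled medians were -0.12 for the cytosolic and -0.07 for the mitochondrial members, against 0.03 over all genes. At 25 nM the medians were -0.33 for the ATF4-linked, -0.20 for the other cytosolic and -0.11 for the mitochondrial genes, against 0.03 over all genes. A 5 nM library hardly enters the 25 nM comparison, so the 25 nM values were bound to stay close. The same 8 cytosolic genes and MARS2 lay below untreated in all 8 remaining treated libraries. They did so in every decitabine library before, so leaving out a library could not remove them and is no check of them. It could only have added members, and it added none. The share over all genes was not computed for these 8 libraries.

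MARS had the largest cytosolic change, with 256, 206, 175 and 165 CPM in HH at 0, 5, 12.5 and 25 nM decitabine, 238, 209.9, 192 and 164 CPM in PF382, and 472, 369.7, 351 and 305 CPM in TLOm1. Its level fell with each dose in every line, and at 25 nM it was lower by -0.60 ± 0.06 (edgeR adjusted p = 0.000424; slope -0.13 ± 0.02, adjusted p = 0.0188). GARS, which serves cytosol and mitochondria, had 298, 245, 217 and 189.8 CPM in HH, 261, 247, 228 and 182 CPM in PF382, and 369.8, 314, 241 and 248 CPM in TLOm1 (25 nM -0.58 ± 0.08, adjusted p = 0.00213; slope -0.16 ± 0.03). All 9 treated GARS values were below their untreated library. SARS had 117, 109, 92.9 and 85.0 CPM in HH, 156, 148, 132 and 117 CPM in PF382, and 292, 263, 224 and 226 CPM in TLOm1 (25 nM -0.42 ± 0.06, slope -0.12 ± 0.03).

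AARS, the alanine enzyme, had 399.7, 304, 278 and 254 CPM in HH, 221, 202, 191 and 165 CPM in PF382, and 439, 427, 416 and 369 CPM in TLOm1, a fall with each dose in all 3 lines that was largest in HH (25 nM -0.44 ± 0.08, slope -0.10 ± 0.02). IARS, the isoleucine enzyme, had 350.4, 315, 279 and 257 CPM in HH, 349.8, 331, 300.4 and 257 CPM in PF382, and 502, 446, 403 and 405 CPM in TLOm1 (25 nM -0.40 ± 0.06, slope -0.11 ± 0.02). YARS had 195, 176, 166 and 150.5 CPM in HH, 237, 217, 181 and 154 CPM in PF382, and 305, 286, 279.6 and 269 CPM in TLOm1, and it passed the threshold at 25 nM (-0.39 ± 0.08, adjusted p = 0.0205) but not in the slope (-0.11 ± 0.03, adjusted p = 0.0757). The untreated AARS libraries of PF382 already differed between the sets, at 221 CPM in the decitabine set and 347 CPM in the AZA set.

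Of the mitochondrial counterparts of these genes MARS2 alone passed the threshold, and YARS2 stood at -0.33 ± 0.10 (adjusted p = 0.0725). MARS2 had 42.4, 38.2, 30.5 and 22.8 CPM in HH at 0, 5, 12.5 and 25 nM decitabine, 37.4, 32.2, 25.0 and 22.1 CPM in PF382, and 34.0, 32.1, 29.4 and 29.01 CPM in TLOm1, below untreated in 9 of 9 libraries (25 nM -0.62 ± 0.12, adjusted p = 0.0168; slope -0.19 ± 0.04, adjusted p = 0.0370). IARS2 had 164, 158, 182 and 199 CPM in HH, 136, 139.6, 143 and 138 CPM in PF382, and 216, 209, 228 and 219.7 CPM in TLOm1, and its 25 nM value was 0.11 ± 0.07. AARS2 had 33.5, 31.8, 32.7 and 28.5 CPM in HH, 51.2, 47.8, 43.7 and 50.8 CPM in PF382, and 25.2, 27.6, 26.5 and 22.2 CPM in TLOm1 (25 nM -0.14 ± 0.10). Neither gene passed the threshold. SARS2 had 28.1, 23.7, 23.7 and 30.5 CPM in HH, 29.3, 26.2, 28.99 and 30.9 CPM in PF382, and 51.4, 50.5, 55.3 and 50.8 CPM in TLOm1 (25 nM 0.06 ± 0.10).

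Since AZA and decitabine are both cytosine analogs, the members were set side by side between the drugs, although the doses do not match and only the libraries given can be compared. AZA is a ribonucleoside and decitabine its deoxyribose counterpart. In the pooled effects, AZA minus decitabine, 0 of 35 members were called by edgeR and 0 by DESeq2 (0% of all genes by edgeR). At an unadjusted p under 0.05 were 8 members, where 705 of 16019 genes were. All 8 are ATF4-linked and were higher under AZA (MARS 0.45 ± 0.13, YARS 0.34 ± 0.12, CARS 0.34 ± 0.14). A test of the slopes, added after the data had been seen, called 5 of 35 members, where 0.408% of all genes were called. These were MARS (AZA slope minus decitabine slope 0.26 ± 0.04 per doubling, adjusted p = 0.00273), SARS (0.28 ± 0.04, adjusted p = 0.00358), YARS (0.23 ± 0.04, adjusted p = 0.0261), CARS (0.20 ± 0.04, adjusted p = 0.0369) and GARS (0.20 ± 0.04, adjusted p = 0.0377). All 5 are ATF4-linked, and 0 mitochondrial members were called by edgeR (1 at an unadjusted p under 0.05). DESeq2 also called 5 members, with no share over all genes computed. For the other members a p that misses the threshold does not show that the drugs acted alike.

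MARS and SARS kept their call in all 18 fits that left out 1 treated library, YARS in 12, GARS in 6 and CARS in 5. The 5 calls became 2 without HH at 250 nM AZA, TLOm1 at 125 or 500 nM AZA, HH at 12.5 nM decitabine or PF382 at 5 nM decitabine, and 3 without any PF382 AZA library, HH at 5 nM, PF382 at 25 nM or TLOm1 at 5 nM decitabine. Without TLOm1 at 5 nM decitabine 42 of 11818 genes were called. For the other fits calls over all genes were not counted. GARS under AZA had 295, 257, 255 and 279.8 CPM in HH at 0, 50, 125 and 250 nM, 258, 264, 265 and 273 CPM in PF382 at 0, 125, 250 and 500 nM, and 357, 333, 305 and 341 CPM in TLOm1 at the same doses, with a slope of 0.04 ± 0.03 that did not pass the threshold on its own. CARS under decitabine had 107, 94.0, 105 and 113 CPM in HH, 56.4, 57.0, 57.4 and 55.2 CPM in PF382, and 213, 182, 190.4 and 176 CPM in TLOm1, with no slope past the threshold either.

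**Figure D4:**
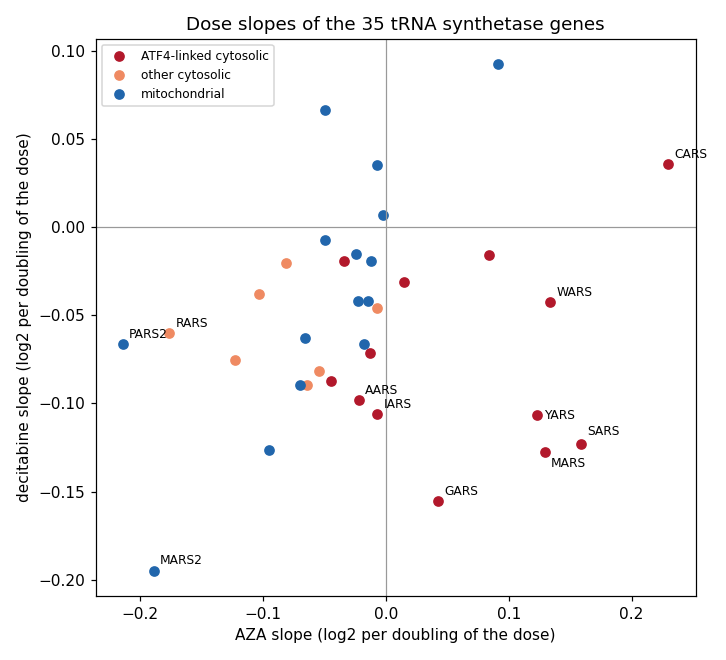
Slope on log2 dose for each gene under AZA (x axis) and decitabine (y axis), in log2 units per doubling, with the genes named that passed the threshold for either drug. MARS, SARS, YARS and WARS lie in the quadrant that rises with AZA and declines with decitabine, and MARS2 and RARS have negative slopes on both axes.

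The cytosolic and mitochondrial classes as wholes moved little apart. In each treated library the median log2 ratio of the 15 mitochondrial members to the own untreated library was subtracted from that of the 20 cytosolic members. Under AZA this difference averaged 0.025 ± 0.060 (SD over 9 libraries) and ran between -0.03 and 0.14, less than its spread, with 0.14 in PF382 and 0.12 in TLOm1 at 500 nM as the highest values. With both untreated libraries of a line as controls the AZA mean turned to -0.028. Under decitabine the difference averaged -0.089 ± 0.094 and was below 0 in 8 of 9 libraries, with PF382 at 12.5 nM as the exception (0.09). The decitabine mean was -0.084 without TLOm1 at 5 nM and -0.031 with both untreated libraries as controls. No test was made of these medians.

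Summed over all members, cytosolic RNA outweighed mitochondrial RNA by 4.68 to 8.31 times across the 24 libraries. In HH the ratio was 5.62 untreated and 5.39, 5.05 and 4.68 at 5, 12.5 and 25 nM decitabine, and in PF382 it was 6.29 untreated and 6.26, 6.15 and 5.503. TLOm1 had 8.31 untreated and 7.66, 6.98 and 7.23 at those doses. The ratio was thus lower at every decitabine dose than in the untreated library of the same line and set. The untreated libraries of the AZA set gave 5.25 in HH and 7.48 in TLOm1, each below the ratio at 5 nM decitabine. In PF382 that library gave 6.53, above the ratio at every decitabine dose. Under AZA the ratio was 5.25 untreated and 5.10, 5.08 and 5.17 in HH, 6.53 untreated and 6.19, 6.42 and 6.74 in PF382, and 7.48 untreated and 7.24, 7.30 and 8.14 in TLOm1.

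**Figure D5:**
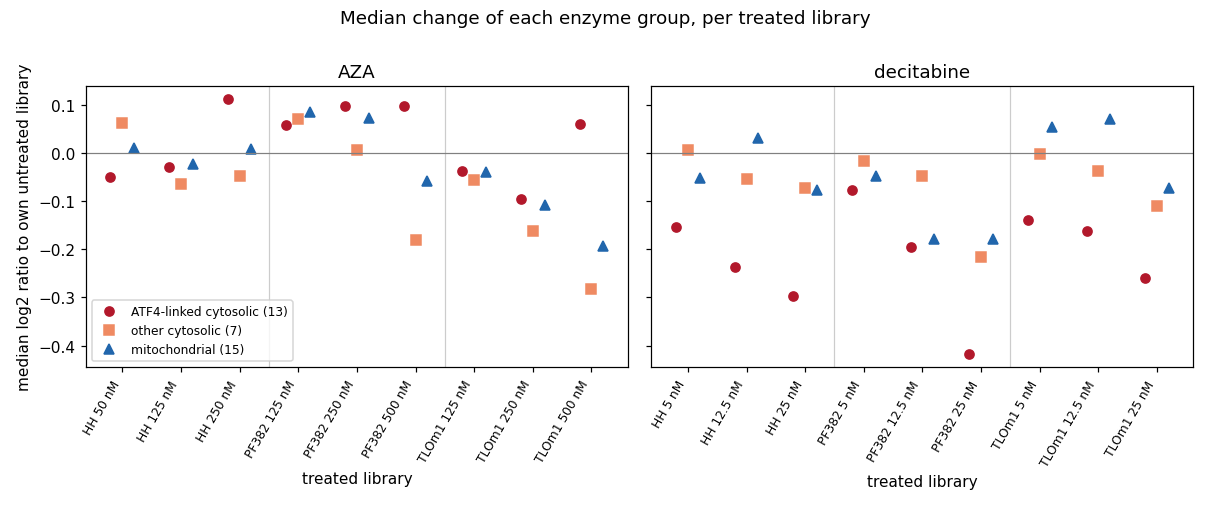
Median log2 ratio to the own untreated library of the 13 ATF4-linked cytosolic, 7 other cytosolic and 15 mitochondrial genes in each treated library, AZA left and decitabine right. At the highest AZA dose the ATF4-linked median lies above the other cytosolic median in every line (PF382 0.10 and -0.18), and under decitabine it lies below it in all 9 libraries (PF382 at 25 nM -0.42 and -0.22).

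Pairing each cytosolic enzyme with the mitochondrial enzyme of the same amino acid gave 12 pairs. At the highest AZA dose the cytosolic partner had the higher fold change in 8 of 12 pairs, most of all for methionine (MARS 0.17, MARS2 -0.52), tyrosine (YARS 0.21, YARS2 -0.28) and cysteine (CARS 0.47, CARS2 0.04), and the lower one for arginine (RARS -0.33, RARS2 -0.03). By library it was higher in 5 of 12 pairs in HH at 250 nM, 9 in PF382 and 8 in TLOm1 at 500 nM. At 25 nM decitabine the cytosolic partner had the lower value in 8 of 12 pairs, most of all for isoleucine (IARS -0.40, IARS2 0.11) and serine (SARS -0.42, SARS2 0.06). The methionine pair fell together there (MARS -0.60, MARS2 -0.62). Leucine was an exception under decitabine, with LARS at -0.10 and LARS2 at -0.32. In the TLOm1 library at 5 nM decitabine, the one with the highest fibroblast marker sum, the cytosolic partner was lower in 12 of 12 pairs.

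Single lines gave no further calls. In each line against its own untreated library edgeR called 0 members for either drug, where 0% of all genes were called in HH, 0.974% in PF382 and 1.47% in TLOm1 for AZA, and 0.00624%, 0.262% and 0% for decitabine. Members with an unadjusted p under 0.05 numbered 0 in HH, 2 in PF382 and 5 in TLOm1 for AZA, and 4, 2 and 4 for decitabine (5 in TLOm1 without its 5 nM library, and still 0 called), and DESeq2 called 1 in PF382 and 1 in TLOm1 for AZA and 1 in HH for decitabine. The share over all genes was not computed for DESeq2. No member differed in effect between lines in edgeR or DESeq2 (0 for each drug, with 1 for AZA and 0 for decitabine at an unadjusted p under 0.05, where 0.15% and 0.00624% of all genes were called). The next smallest p values under AZA belonged to LARS2 and EARS2. LARS2 had 42.4, 45.2, 47.1 and 48.1 CPM in HH at 0, 50, 125 and 250 nM, 61.5, 62.7, 64.7 and 58.0 CPM in PF382 at 0, 125, 250 and 500 nM, and 68.6, 59.6, 54.3 and 41.4 CPM in TLOm1 at the same doses. EARS2, the mitochondrial glutamate enzyme, had 41.6, 41.3, 42.0 and 44.4, 42.8, 52.4, 53.9 and 48.3, and 60.7, 58.5, 59.9 and 54.4 CPM in the same order. Under decitabine RARS2 had the smallest p, at 44.1, 46.8, 49.6 and 41.3 CPM in HH at 0, 5, 12.5 and 25 nM, 22.4, 26.8, 32.2 and 29.7 CPM in PF382, and 20.2, 23.2, 21.2 and 21.0 CPM in TLOm1.

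Other genes of the same pathways were read from lists that were also made with earlier results known. Of 10 integrated stress response genes 8 had a rising AZA slope and 0 a falling one, where 8.99% of all genes rose and 8.13% fell. Those at the smallest p were PSAT1, a serine synthesis enzyme (0.27 ± 0.04 per doubling), SESN2, a leucine sensor (0.46 ± 0.08), and the stress-induced transcription factors ATF5 (0.62 ± 0.10) and DDIT3 (0.57 ± 0.10). At the highest AZA dose 4 of the 10 were higher and 0 lower, where 8.46% of all genes were higher and 6.43% lower. In HH alone, over its AZA doses, 2 of the 10 were fitted above 0 (median -0.09, against 0.01 over all genes). ATF4 itself, named here as the factor of the response and after its values were seen, had 563, 519, 513 and 594 CPM in HH at 0, 50, 125 and 250 nM AZA, 491, 475, 528 and 669 CPM in PF382 at 0, 125, 250 and 500 nM, and 911, 805, 875 and 1045 CPM in TLOm1 (slope 0.17 ± 0.04, adjusted p = 0.0129). Like MARS and SARS it dipped under untreated at low dose in HH and TLOm1. Under decitabine 4 of 10 genes of this list were lower at 25 nM, where 2.06% of all genes were, namely ATF4 (-0.32 ± 0.07, adjusted p = 0.0269), PSAT1 (-0.55 ± 0.07), ASNS, which makes asparagine (-0.77 ± 0.15), and TRIB3, an ATF4-induced pseudokinase (-0.70 ± 0.12). The same 4 were called without TLOm1 at 5 nM, a library that hardly enters the 25 nM comparison. ATF5, named for decitabine after its values were seen, did not fall in every line. It had 25.9, 39.8, 76.4 and 135 CPM in HH at 0, 5, 12.5 and 25 nM decitabine. In PF382 it had 329, 356, 340 and 247 CPM, and in TLOm1 421, 458, 613 and 478 CPM at those doses. Of 9 genes of this list tested for the decitabine slope 1 fell (TRIB3), where 0.693% of all genes fell. Among these 9 slopes 3 lay above 0. Without TLOm1 at 5 nM the 1 gene called for this slope was PSAT1 instead. In the added test of AZA slope minus decitabine slope ATF4 (0.25 ± 0.04, adjusted p = 0.0194) and PSAT1 (0.37 ± 0.05, adjusted p = 0.00273) were called too.

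Some partners of the mitochondrial enzymes were lower under AZA. Of 13 mitochondrial translation factors 3 had a falling and 0 a rising AZA slope, where 8.13% of all genes fell. At the highest dose 4 were lower and 0 higher, where 6.43% of all genes were lower, with TUFM, the mitochondrial elongation factor Tu, at -0.29 ± 0.06 (adjusted p = 0.0128). At 25 nM decitabine edgeR called 0 of these 13, with 2 at an unadjusted p under 0.05, and TUFM stood at -0.31 ± 0.09 (adjusted p = 0.0625). Without TLOm1 at 5 nM edgeR again called 0 of 13, with 2 at an unadjusted p under 0.05, though a 5 nM library hardly enters the 25 nM comparison. Of the 5 cytosolic elongation factors 0 were called for the AZA slope or at the highest AZA dose (1 and 2 at an unadjusted p under 0.05), and 1 was lower at 25 nM decitabine.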

How the data were processed

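Read counts per gene of 24 RNA-seq libraries were used as deposited by the authors, as whole numbers without normalization. The submitters' processing notes list GRCh37.p2 as the build and STAR, limma and DESeq2 as tools, with no version or role. For the read counter and the gene models the entry is not given in the sources used here. By the labels the RNA was both polyA and rRNA-depleted total RNA, a conflict that could shift levels between genes. Reads shared with overlapping genes were not examined.

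Groups came from the labels. Tests used edgeR 4.0.16 in R 4.3.3 (quasi-likelihood F test, TMM, robust dispersion, line as a block, or line within set for all 24 libraries; filterByExpr with a minimum count of 10 and a minimum total of 15), with Benjamini-Hochberg adjustment over all genes tested and a threshold of 0.05. This left 16107 genes for AZA, 15892 for decitabine, 11574 and 11262 for the slopes and 11287 for untreated cells. SE was the log2 fold change divided by the square root of F. Ratios to untreated libraries used a prior count of 2 on the log2 scale. Exon lengths were the union of exons in GENCODE v29. Alternatives were DESeq2 1.42.0, limma 3.58.1 (voom), RLE scaling, no filter, dose rank, no line block, summed doses, both untreated libraries as controls, and leaving out each line or library. The scripts were tested on simulated counts.

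Members and lists were chosen with earlier results of these data known. All 35 members could be named, and library values were given for those past the threshold in a pooled effect or slope (or the 4 with the smallest p), the 3 with the smallest p between lines, and their counterparts for the same amino acid. From other lists at most 4 genes per drug were named, apart from ATF4 under AZA and ATF5 under decitabine. SE and SD include the spread between libraries. A count of 0 allows at most 3 counts, for counting error only, or 0.197 CPM in the smallest effective library.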

Additional observations from a re-analysis of the deposited data

How the results depend on the processing

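Single genes were followed through the alternatives where they passed the threshold in a drug comparison or between the untreated sets, or were among the 4 with the smallest p, and none of these changed direction. Counts of members called moved by more than 1.5 times in these cases. DESeq2 called 1 member for the pooled AZA effect, 1 at the middle AZA dose, 4 for the pooled decitabine effect, 1 at 5 nM and 11 at 25 nM decitabine, and 1 each in PF382 and TLOm1 for AZA and in HH for decitabine. RLE scaling called 1 for AZA in PF382. Both untreated libraries as controls, without a term for the set, gave 5 for AZA and 9 for decitabine. The AZA slope had 4 calls without the PF382 libraries and 4 without those of TLOm1. The decitabine slope had 0 without HH (edgeR, 14 at an unadjusted p under 0.05) and 2 without PF382. The cause was not tested. Shares of calls over all genes were not computed for DESeq2, for the other alternatives or for fits without 1 library. The fits without TLOm1 at 5 nM decitabine are the exception. Elsewhere a general change in calls cannot be told apart from a change in these genes. Leaving out 1 library gave 0 for both pooled effects, 5 to 8 for the AZA slope, 0 to 7 for the decitabine slope, 0, 0 to 1 and 3 to 6 for the AZA doses from low to high, 0, 1 to 4 and 4 to 8 for the decitabine doses, 24 to 31 between untreated lines (TLOm1 minus HH 14 to 28, PF382 minus HH 11 to 19, PF382 minus TLOm1 17 to 22) and 2 to 5 for the slope difference. The cytosolic minus mitochondrial difference then ran between 0.011 and 0.032 for AZA and between -0.11 and -0.072 for decitabine. Of the alternatives for single genes 813 left the call as it was, 166 lost it and 14 gained it. The line block pairs the treated with the untreated libraries of a line, and without it the pooled effects had 0 calls for either drug (edgeR, 0 for AZA and 2 for decitabine at an unadjusted p under 0.05). Depth was not tested as a limit, and the lowest count of a member in any library was 69.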
